A study of Mus musculus with 16 samples.

Results

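Macrophages kept with thrombin-activated platelets were compared with macrophages kept with resting platelets, as 4 libraries against 4, which are 8 of the 16 libraries of the series. The libraries were chosen by their titles, and the comparison is described over all genes with enough counts to test. The cells were bone marrow-derived macrophages from mice labelled C57BL6/J, which are macrophages grown from marrow in a dish with the growth factor M-CSF. In all groups the marrow was cultured for 7 days with L929-conditioned medium, and 400000 cells were plated and held in 0.5% serum for 4 hours before treatment. Treatment lasted 4 hours. The resting group received purified mouse platelets, and the activated group received such platelets activated with thrombin. The other 8 libraries, 4 with PBS as the vehicle and 4 with thrombin alone, serve as a measure of what thrombin does without platelets. The activated and resting groups differ by thrombin as well as by the state of the platelets, so both are part of every difference below. The thrombin dose is unclear, since the protocol gives 0.01 U/mL, the thrombin group is labelled 0.1 U/mL and the activated group carries no dose. The number of platelets per macrophage, the number of donor mice, and whether platelets were washed off before lysis were not stated in any source at hand.

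Thrombin is the last protease of the coagulation cascade, and it activates platelets by cutting receptors on their surface. Activated platelets empty their granules, which hold chemokines, growth factors such as PDGF and TGF-beta, serotonin and nucleotides, and they make thromboxane and other lipid mediators. Macrophages carry receptors for many of these products, some of which couple to cyclic AMP (cAMP), a second messenger that activates protein kinase A and the transcription factor CREB. Some of the phosphodiesterases that break cAMP down are themselves well-known CREB targets, as are Crem and the Nr4a nuclear receptors. Platelets have no nucleus but carry RNA from the megakaryocyte that made them, so RNA from a mixed well holds both macrophage and platelet transcripts.

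Libraries with resting platelets held 24.9 to 26.4 M counts (M for mega), and those with activated platelets 28 to 30.6 M counts. Levels below are CPM on library sizes scaled by the TMM method, and the 4 values of a group always follow the order of replicates 1 to 4. The macrophage marker list took 2.23% to 2.67% of counts with resting and 2.2% to 2.7% with activated platelets. The first principal component of the 8 libraries held 37.3% of the variance and set the groups apart, with resting libraries from -19.1 to -10.3 and activated libraries from 10.8 to 18.6. The second held 28.2% and set replicate 1 apart in both groups, and the replicate 1 libraries also carried Ddx3y, a Y-linked gene (93.2 CPM with resting and 88.6 CPM with activated platelets), while the others carried Xist. In bulk RNA, fewer cells of a type and less RNA per cell cannot be told apart, and neither can platelet and macrophage RNA for genes that both express.

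Of 15610 genes tested, 2472 (15.8%) differed between activated and resting platelets at an adjusted p under 0.05, by edgeR's quasi-likelihood test with Benjamini-Hochberg adjustment over all tested genes. A gene is said to rise or fall with activated platelets only if it passed this test, and such genes are called. There were 1146 genes higher (7.34% of those tested) and 1326 lower (8.49%), and the median log2 fold change over all tested genes was -0.0028. Most differences were small: 1898 of the called genes changed by less than 1.5-fold, whereas 166 rose (1.06%) and 100 fell (0.641%) by 2-fold or more, 266 in all (1.7%). The 4 activated and 4 resting libraries did not overlap for 2157 of the called genes. Within replicate numbers, 1127 of the 1146 rises were higher in 4 of 4 and 1315 of the 1326 falls were lower in 4 of 4. These genes were called from the same libraries, so such agreement follows in large part from the calls and adds no separate support. The shares without overlap over all tested genes are not given. With the replicate number as a block in the model, 5391 genes (34.5%) were called, 2489 higher (15.9%) and 2902 lower (18.6%), including all 2472. Counts of called list members below are to be read against these shares of all tested genes. They are 7.34% higher and 8.49% lower, or 15.9% and 18.6% with the block. Without replicate number 1 in all groups 972 genes were called, and without number 3 there were 1375.

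**Figure D1:**
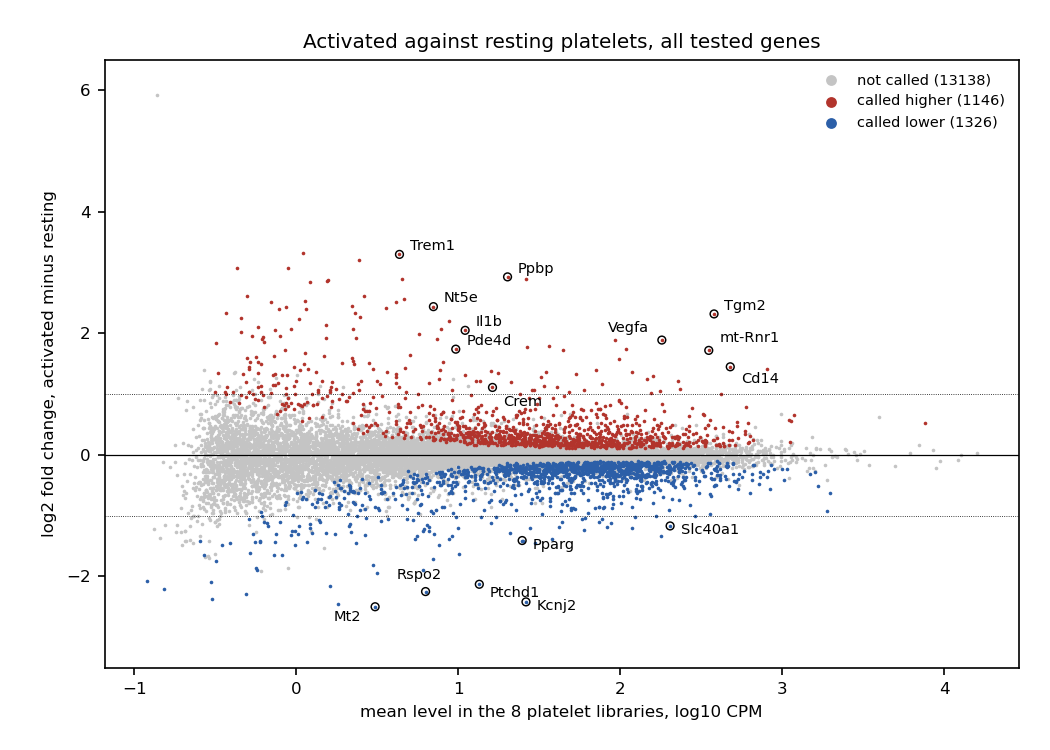
Each point is one of the 15610 tested genes, with the mean level over the 8 platelet libraries (log10 CPM) on the horizontal axis and the log2 fold change, activated minus resting, on the vertical axis. Red points were called higher (1146), blue points lower (1326), grey points were not called, dotted lines mark 2-fold, and circled genes are described in the text. The largest called changes, such as Trem1 at 3.3 and Kcnj2 at -2.42, lie far outside the band that holds most genes.

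Of 18 tested genes known to respond to cAMP, 13 rose (72.2%, against 7.34% of all tested genes) and 1 fell, with a median log2 fold change of 0.97 (15 and 1 with the replicate block). The list was built from known CREB targets, and several members also stand in the lists of cAMP machinery and immediate early genes, so these counts overlap. It was chosen with earlier results of these data known and holds Pde4d and Crem, which were named whatever their values. Its share is therefore a description and no separate support for a cAMP response. Pde4d, a phosphodiesterase that degrades cAMP (GRCm39 chromosome 13, 108790711 to 110092503), stood at 4.66, 3.79, 4.29 and 5.03 CPM with resting platelets and at 14.5, 12.2, 14.9 and 17.9 CPM with activated platelets. The lowest activated library was above the highest resting one, the rise was 3.35-fold (log2 fold change 1.74 ± 0.12, SE, adjusted p = 1.94e-07), and vehicle and thrombin libraries averaged 4.26 and 3.97 CPM. Crem, a CREB family factor whose short forms repress cAMP-driven transcription, was at 10.4, 10.3, 9.71 and 10.9 CPM with resting and at 23.5, 18.8, 21.6 and 25.2 CPM with activated platelets. It rose 2.16-fold (log2 fold change 1.11 ± 0.1, SE, adjusted p = 3.69e-06), again with no overlap.

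Other phosphodiesterases moved with Pde4d or against it. Pde7b rose from 9.47, 10.6, 9.4 and 10.6 CPM to 23.6, 23.9, 27.7 and 26.6 CPM (2.54-fold, adjusted p = 2.41e-06), the groups lying far apart. Pde3b rose 2.07-fold (adjusted p = 0.000295), Pde4b 1.9-fold (adjusted p = 0.000488) and Pde8a 1.44-fold (adjusted p = 7.27e-06). Pde8b fell 1.86-fold (adjusted p = 0.00795) and Pde1c 2.28-fold (adjusted p = 0.0127). The remaining machinery was mixed, so that 8 of 40 tested members rose (20%) and 6 fell (15%), with a median log2 fold change of 0.01 (15 and 9 with the replicate block). Prkar1a, a regulatory subunit of protein kinase A, rose 1.2-fold (adjusted p = 6.52e-05). Adcy9, an adenylyl cyclase that makes cAMP, fell 1.54-fold (adjusted p = 0.000525), and Pkib, an inhibitor of protein kinase A, fell from 36.1, 45.9, 39.4 and 32.9 CPM to 15.9, 21.6, 13.8 and 16.1 CPM (2.29-fold, adjusted p = 9.5e-05).

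Fos, an AP-1 subunit and immediate early gene, stood at 76.5, 112, 84.8 and 97.4 CPM with resting and at 214, 218, 225 and 255 CPM with activated platelets, without overlap (2.46-fold, log2 fold change 1.3 ± 0.1, SE, adjusted p = 7.79e-07). Nr4a2, an orphan nuclear receptor, went from 2.58, 2.47, 2.13 and 2.89 CPM to 6.1, 4.89, 5.39 and 6.45 CPM (2.27-fold, adjusted p = 5.57e-06). Its relatives Nr4a1 (1.73-fold, adjusted p = 0.00354) and Nr4a3 (4.19-fold, adjusted p = 0.00294) also rose. The level of Nr4a3 was 0.232 to 0.594 CPM over the resting and 1.07 to 1.78 CPM over the activated libraries. Fosb rose 2.17-fold (adjusted p = 0.0144), the GTPase gene Gem 2.09-fold (adjusted p = 0.00256) and the clock gene Per1 1.28-fold (adjusted p = 0.00999). Cited2, a coactivator-binding protein, fell 1.55-fold (adjusted p = 3.5e-06). Pde10a (adjusted p = 0.0305) and Sik1, a kinase that restrains CREB coactivators (adjusted p = 0.0491), had the weakest calls. That of Pde10a was lost without activated replicate 1 (adjusted p = 0.0977) or 4 (0.082), or without resting replicate 2 (0.0679), 3 (0.0827) or 4 (0.0527). That of Sik1 was lost without activated replicate 3 (adjusted p = 0.159) or 4 (0.0804), or without resting replicate 1 (0.149), 2 (0.0984) or 4 (0.0736).

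The CREB core site TGACG, read on both strands, was looked for in RefSeq promoter windows of 250 bases before the gene start (GRCm38.p6). It was present for 7 of the 9 called-higher cAMP response genes that had a window (77.8%) and for 29.6% of the 11162 tested genes with a window. The list was made of known CREB targets, so this share describes the list rather than the experiment. The full site TGACGTCA was found for 0 of these 9 genes and for 2.9% of the tested genes with a window. Among genes that rose at least 2-fold, 23.4% held the core site and 0.901% the full site. The windows of Pde4d, Trem1, Nt5e and Ptgs2 held no core site. The 3 stretches below were chosen after the search and show called genes with more than 1 copy, of which Nr4a3 was at a low level. Capitals mark the core site, as TGACG or as its reverse complement CGTCA.
Fos (chr12:85473736-85473853, plus strand): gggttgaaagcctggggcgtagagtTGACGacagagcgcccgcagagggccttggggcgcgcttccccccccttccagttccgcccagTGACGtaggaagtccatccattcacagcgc
Nr4a2 (chr2:57124085-57124228, minus strand): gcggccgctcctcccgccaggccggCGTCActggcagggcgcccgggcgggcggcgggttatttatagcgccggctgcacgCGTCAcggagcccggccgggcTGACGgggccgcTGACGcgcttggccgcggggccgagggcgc
Nr4a3 (chr4:48045055-48045187, plus strand): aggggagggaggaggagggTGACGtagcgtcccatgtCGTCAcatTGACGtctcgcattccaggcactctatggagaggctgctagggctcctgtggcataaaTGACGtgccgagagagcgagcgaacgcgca
Fos holds 2 copies in its window, and Nr4a2 and Nr4a3 hold 4 each. Among genes that rose at least 2-fold the core site was present for 23.4% of those with a window, below the share of all tested genes.

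Of 9 tested receptors that couple to the stimulatory G protein, which raises cAMP, 4 fell, 2 rose and 3 were not called, with a median log2 fold change of -0.23 (5 falls and 3 rises with the replicate block). Ptger4, the prostaglandin E2 receptor EP4, was at 26, 30.4, 31.4 and 31.9 CPM with resting and at 13.9, 19.2, 16.9 and 13.5 CPM with activated platelets, so that no library overlapped (1.88-fold lower, adjusted p = 9.53e-06). Calcrl, the receptor for CGRP and adrenomedullin, also fell (1.87-fold, adjusted p = 0.000153). Adora2b, a low-affinity adenosine receptor, rose from 2.84, 3.42, 2.4 and 3.8 CPM to 6.58, 5.82, 6.11 and 7.17 CPM (2.06-fold, adjusted p = 0.000237), and Vipr1, a receptor for VIP, rose 2.06-fold from under 2 CPM (adjusted p = 0.0128).

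Genes that make adenosine and sense nucleotides showed 6 rises (25%) and 1 fall among 24 tested members, with a median log2 fold change of 0.06 (8 and 5 with the replicate block). Nt5e, which encodes CD73, the ectoenzyme that turns AMP into adenosine (GRCm39 chromosome 9, 88209662 to 88254142), stood at 2.95, 1.32, 2.05 and 2.41 CPM with resting and at 13.8, 9.18, 11.1 and 13.7 CPM with activated platelets. All activated libraries were at least 3 times as high as the highest resting library, and the rise was 5.44-fold (log2 fold change 2.44 ± 0.31, SE, adjusted p = 6.35e-05). Entpd1, which encodes CD39, the enzyme acting before CD73, was at 182, 194, 245 and 196 CPM and at 245, 252, 336 and 282 CPM, groups that overlapped. It did not pass (1.37-fold, adjusted p = 0.0764), and it passed with the replicate block (adjusted p = 1.2e-05). Entpd7, a related enzyme of internal membranes, rose 1.25-fold (adjusted p = 0.000287). Of the nucleotide receptors, P2rx1, an ATP-gated channel also present on platelets, rose 5.29-fold (adjusted p = 0.000237), with resting libraries at 0.198 to 0.696 CPM and activated libraries at 1.49 to 2.55 CPM. P2ry12, the ADP receptor targeted by clopidogrel and a member of the platelet marker list, rose 1.66-fold (adjusted p = 0.00224), and P2ry1 fell 2.09-fold (adjusted p = 0.00371).

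**Figure D2:**
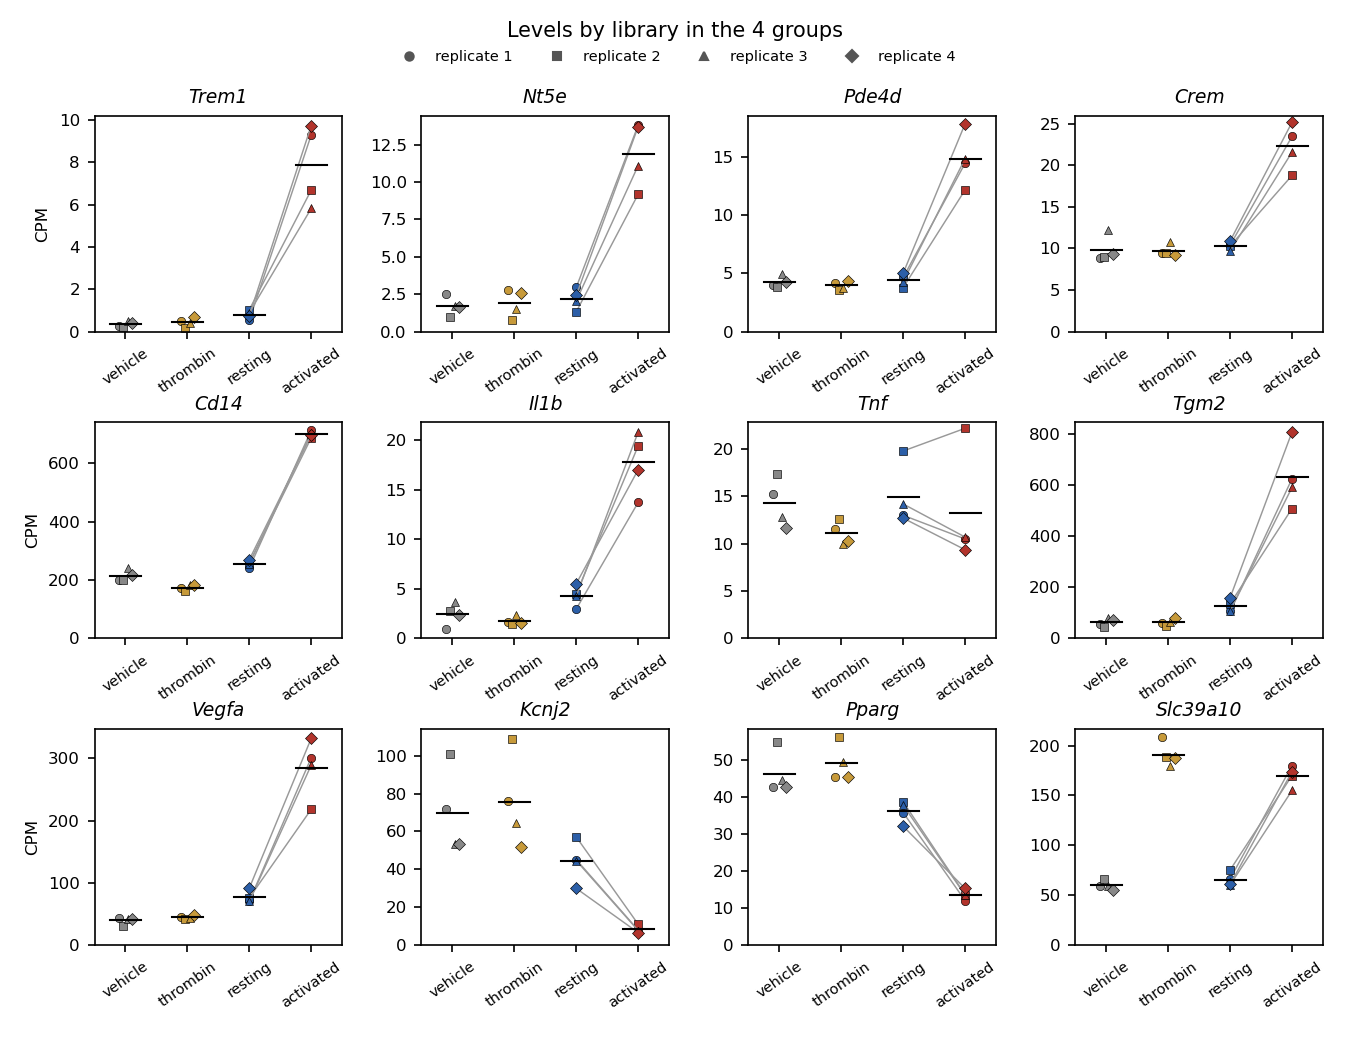
Each panel shows 1 gene, with the level in CPM on a linear axis from 0 and the 4 groups side by side. Points are libraries, symbols mark replicate numbers, bars are group means, and grey lines join resting and activated libraries of the same number. Trem1, Nt5e, Pde4d, Crem, Cd14, Il1b, Tgm2, Vegfa and Slc39a10 were higher in all 4 activated libraries than in any resting one, Kcnj2 and Pparg were lower, and Tnf overlapped.

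Receptors by which macrophages sense microbes and damage changed in both directions, with 9 rises (31%) and 5 falls (17.2%) among 29 tested members and a median log2 fold change of 0.1 (12 and 9 with the replicate block). Trem1, a receptor that amplifies inflammatory signals (GRCm39 chromosome 17, 48539763 to 48553955), was at 0.53, 1.03, 0.89 and 0.752 CPM with resting platelets and at 9.3, 6.69, 5.82 and 9.74 CPM with activated platelets. Its rise of 9.84-fold (log2 fold change 3.3 ± 0.27, SE, adjusted p = 1.06e-06) was the largest among genes that met the rule for naming by size. Trem2, a receptor of the same family with lipid ligands, was at 712, 854, 852 and 696 CPM and at 721, 830, 765 and 639 CPM, which overlapped (adjusted p = 0.698). Cd14, the co-receptor that hands lipopolysaccharide to TLR4, was at 241, 258, 256 and 270 CPM with resting and at 714, 688, 703 and 698 CPM with activated platelets. The replicates of Cd14 lay close together within each group, and the rise was 2.74-fold (log2 fold change 1.45 ± 0.06, SE, adjusted p = 9.55e-10). The Toll-like receptors split: Tlr2 rose 2.12-fold (adjusted p = 5.35e-06), while Tlr4 fell 1.2-fold (adjusted p = 0.00181) and Tlr13, a sensor of bacterial ribosomal RNA, fell 1.61-fold (adjusted p = 0.000154). Of the C-type lectins, Clec4e (Mincle) rose 2.2-fold (adjusted p = 1.18e-06) and Clec4d rose 1.72-fold (adjusted p = 0.000545).

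Cytokine genes of the NF-kB group did not move together, with 6 rises (22.2%) and 2 falls (7.41%) among 27 tested members. The median log2 fold change was 0.18 (7 rises and 2 falls with the replicate block). Il1b, the interleukin-1 beta precursor, stood at 2.95, 4.49, 4.26 and 5.5 CPM with resting and at 13.7, 19.4, 20.8 and 17 CPM with activated platelets, with no overlap (4.13-fold, log2 fold change 2.05 ± 0.26, SE, adjusted p = 7.12e-05). Tnf was at 13, 19.8, 14.2 and 12.7 CPM with resting and at 10.5, 22.2, 10.7 and 9.36 CPM with activated platelets. Replicate 2 was the highest library of both groups for Tnf, the groups overlapped, and no difference was called (log2 fold change -0.17 ± 0.23, SE, adjusted p = 0.68). Without activated replicate 2, Tnf was lower (log2 fold change -0.55, adjusted p = 0.0323). The chemokine Ccl4 fell from 6.82, 7.26, 9.4 and 7.84 CPM to 2.72, 3.99, 2.77 and 2.44 CPM (2.63-fold, adjusted p = 8.98e-06), and Ccl3 fell 2.31-fold (adjusted p = 0.00135). Il1rn, the natural antagonist of the interleukin-1 receptor, rose 1.76-fold (adjusted p = 2.08e-06), from 35.7 to 37.6 CPM with resting to 56.5 to 68 CPM with activated platelets. Il1rn belongs to the alternative activation list, where 7 of 20 tested members rose and 1 fell (median 0.14), or 9 and 3 with the replicate block. Among the rises were Arg2 (2.63-fold, adjusted p = 0.00128) and Arg1 (3.85-fold, adjusted p = 0.00219), the latter at no more than 1.29 CPM in any library.

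In the eicosanoid pathway, 4 of 24 tested genes rose (16.7%) and 5 fell (20.8%), with a median log2 fold change of -0.06 (5 and 9 with the replicate block). Ptgs2, the inducible cyclooxygenase, was at 46.7, 56.6, 32.2 and 64.2 CPM with resting and at 180, 104, 116 and 193 CPM with activated platelets (2.97-fold, adjusted p = 0.000101). The activated libraries differed among themselves, replicates 2 and 3 being the lower, yet all lay above the resting ones. Hpgds, which makes prostaglandin D2, fell 1.52-fold (adjusted p = 4.36e-06).

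Genes for secreted growth factors gave 6 rises (26.1%) and 4 falls (17.4%) among 23 tested members, with a median log2 fold change of 0.18 (10 and 6 with the replicate block). Vegfa, the main growth factor of blood vessels, stood at 70.4, 75.8, 69.9 and 91.4 CPM with resting and at 301, 218, 289 and 332 CPM with activated platelets. No library overlapped, and the rise was 3.71-fold (log2 fold change 1.89 ± 0.13, SE, adjusted p = 1.84e-07). Osm, the cytokine oncostatin M, rose 2.33-fold (adjusted p = 1.06e-06), the EGF receptor ligand Hbegf 2.52-fold (adjusted p = 0.00156), Pdgfa 1.52-fold (adjusted p = 3.2e-05) and Inhba, the activin A subunit, 2.31-fold (adjusted p = 0.00647). Igf1 fell 1.47-fold (adjusted p = 0.013), from 518 to 739 CPM with resting to 351 to 549 CPM with activated platelets, ranges that overlapped. Tgm2, a transglutaminase that crosslinks matrix proteins, went from 105, 135, 107 and 159 CPM to 625, 508, 591 and 808 CPM (5-fold, log2 fold change 2.32 ± 0.2, SE, adjusted p = 1.41e-06). Of 25 hyaluronan and matrix genes 6 rose (24%) and 2 fell (8%), with a median log2 fold change of 0.09 (12 and 6 with the replicate block). Has2, a hyaluronan synthase, rose 2.6-fold (adjusted p = 0.000603), and Ptx3, a pentraxin that stabilises hyaluronan matrix, fell 3.84-fold (adjusted p = 0.00349).

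Of 32 genes of the TGF-beta and BMP pathways 7 rose (21.9%) and 3 fell (9.38%), and the median log2 fold change was 0 (11 and 7 with the replicate block). Those that rose were inhibitors and targets. Smad7, an inhibitory Smad, rose 1.5-fold (adjusted p = 0.00254), Ski, a repressor of Smad complexes, 1.39-fold (adjusted p = 3.9e-06), Pmepa1, a feedback inhibitor, 2.23-fold (adjusted p = 0.00231) and Tgfbi, a secreted TGF-beta-induced protein, 2-fold (adjusted p = 1.73e-06). Tgfbr2, the type II receptor, fell 1.25-fold (adjusted p = 0.00787).

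Pparg, the nuclear receptor of fatty acid storage, stood at 35.8, 38.7, 37.8 and 32.1 CPM with resting and at 12, 13.6, 13.5 and 15.3 CPM with activated platelets, well apart (2.66-fold lower, log2 fold change -1.41 ± 0.1, SE, adjusted p = 1.94e-07). Among 22 genes of LXR and lipid handling, 3 rose (13.6%) and 4 fell (18.2%) with a median of 0 (5 and 9 with the replicate block). Abca1, the cholesterol exporter, rose 1.58-fold (adjusted p = 0.00136) and Lipa, the lysosomal acid lipase, fell 1.44-fold (adjusted p = 0.00183). Of 30 glycolysis and hypoxia genes 5 rose (16.7%) and 7 fell (23.3%), with a median of -0.06 (10 and 13 with the replicate block). Hif1a, the oxygen-sensing factor, rose 1.78-fold (adjusted p = 2.61e-07) and Pfkfb3, which makes the activator of phosphofructokinase, 1.55-fold (adjusted p = 2.32e-05). Pdk1, a kinase that blocks entry of pyruvate into mitochondria and a textbook HIF target, fell from 35.5, 32.1, 36.7 and 38.4 CPM to 20, 19.7, 20.5 and 21.6 CPM (1.74-fold, adjusted p = 7.11e-08). Hif1a and Pdk1 thus moved in opposite directions, each with no overlap of libraries. Of 26 genes of the antioxidant, heme and iron list 3 rose (11.5%) and 1 fell (3.85%), with a median of -0.04 (6 and 7 with the replicate block). The fall was Slc40a1, ferroportin, the only known cellular iron exporter, which went from 262, 235, 368 and 261 CPM to 107, 119, 171 and 104 CPM (2.25-fold, adjusted p = 0.000476). Slc7a11, the cystine importer that feeds glutathione synthesis, rose 2.57-fold (adjusted p = 0.000343).

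The largest falls by size among abundant genes included Kcnj2, an inward rectifier potassium channel. It stood at 45.1, 57.1, 44.6 and 29.9 CPM with resting and at 7.88, 11, 7.65 and 6.55 CPM with activated platelets, without overlap (5.34-fold, log2 fold change -2.42 ± 0.28, SE, adjusted p = 2.52e-05). Kcna3, a voltage-gated potassium channel, rose 2.31-fold (adjusted p = 6.74e-07). Rspo2, an enhancer of Wnt signals, fell from 14.7, 3.75, 9.13 and 14.2 CPM to 2.89, 1.28, 1.65 and 2.95 CPM (4.75-fold, adjusted p = 0.00373), the resting libraries themselves spanning a wide range. Ptchd1, a patched-like membrane protein, fell 4.37-fold (adjusted p = 0.000289), Adamts5, an aggrecan-cleaving protease, 3.73-fold (adjusted p = 0.0103), and Irs1, an insulin receptor substrate, 3.29-fold (adjusted p = 0.00151). Ighm, the immunoglobulin mu chain gene of B cells, fell 3.09-fold (adjusted p = 0.00188), with resting libraries at 8.41 to 22.7 CPM and activated libraries at 2.91 to 7.3 CPM, while the other lymphocyte markers were low, with Cd3d, Cd3g and Cd8a at 0 in all 8 libraries. Olfr111, an odorant receptor gene, fell 2.79-fold (adjusted p = 2.53e-05), and Fam214a 2.72-fold (adjusted p = 0.000143). Sesn1, a stress-induced inhibitor of mTORC1, fell 2.15-fold (adjusted p = 1.63e-06). Atf3, a stress-induced repressor counted with the immediate early genes, fell from 236, 352, 243 and 199 CPM to 86.3, 149, 96.7 and 78.8 CPM (2.51-fold, adjusted p = 0.0023), in contrast to Fos and to Fosl2, which rose 2.02-fold (adjusted p = 1.4e-05). In that list 10 of 24 tested members rose and 2 fell, with a median log2 fold change of 0.34 (14 and 4 with the replicate block).

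Genes of zinc balance moved in both directions, and some moved with thrombin alone. Of 19 tested zinc genes 6 rose (31.6%) and 5 fell (26.3%) with activated platelets (median 0.01), or 7 and 6 with the replicate block. With thrombin alone 1 rose and 2 fell. Slc39a10, a zinc importer, stood at 66.4, 75.3, 60.3 and 60.8 CPM with resting and at 180, 170, 155 and 174 CPM with activated platelets (2.58-fold, log2 fold change 1.37 ± 0.08, SE, adjusted p = 2.5e-08). Thrombin alone raised it by 1.67 on the log2 scale over vehicle (adjusted p = 5.66e-09). Mt2, a zinc-binding metallothionein, fell from 5.76, 4.78, 5.18 and 5.19 CPM to 1.23, 0.901, 0.539 and 0.995 CPM (5.65-fold, log2 fold change -2.5 ± 0.22, SE, adjusted p = 2.41e-06), the largest fall among genes named by size. Mt1 fell 2.66-fold (adjusted p = 5.1e-08). Thrombin alone lowered Mt2 by a log2 change of -2.8 (adjusted p = 8.39e-06) and Mt1 by -1.33 (adjusted p = 4.56e-07). Slc30a1, the zinc exporter of the plasma membrane, fell from 50.1, 60.8, 59 and 48.4 CPM to 17.1, 25.1, 23.5 and 18.2 CPM (2.6-fold, adjusted p = 1.82e-05), whereas with thrombin alone its log2 change was -0.61 and did not pass (adjusted p = 0.122). Mt1 and Slc30a1 are classic targets of the zinc-sensing factor MTF1, whose metal response element, searched as TGCACNC or TGCGCNC on both strands, was present for 33.4% of tested genes with a window. The stretches shown hold the only copy that this search found in their windows, in capitals. By the same search the window of Mt2 held 3 copies, and the 2 windows of Slc39a10 held 0.
Mt1 (chr8:94179041-94179088, plus strand): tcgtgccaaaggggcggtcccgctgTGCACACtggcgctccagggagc
Slc30a1 (chr1:191906713-191906769, plus strand): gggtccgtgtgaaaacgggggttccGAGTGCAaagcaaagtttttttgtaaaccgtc
In Slc30a1 the element reads on the opposite strand, as GAGTGCA. Both stretches are RefSeq sequence on GRCm38.p6, and each window holds 1 copy.

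To see how much of the change also occurred without platelets, it was set against that of thrombin alone. Thrombin against vehicle called 45 genes (0.288%), 14 higher (0.0897%) and 31 lower (0.199%), of which 23 were also called between activated and resting platelets and 17 in the same direction. Over the 15610 genes, which are not independent replicates, log2 fold changes of the 2 contrasts correlated with Pearson r = 0.0816 and Spearman rho = -0.0417, and the contrasts share no library. The difference between the contrasts, activated minus resting less thrombin minus vehicle, passed for 1550 genes (9.93%), 712 higher (4.56%) and 838 lower (5.37%), and for 4535 (29.1%) with the replicate block, 2049 higher (13.1%) and 2486 lower (15.9%). Without replicate number 1 in all groups there were 264, without number 3 there were 755 and without number 4 there were 1003. Of the 2472 genes called between activated and resting platelets 1260 passed this test, and 1212 did not. Not passing does not show that a gene changed alike without platelets, since thrombin alone called only 45 genes. Trem1 (log2 difference 3.01, adjusted p = 0.00189), Il1b (2.56, adjusted p = 0.00126), Tgm2 (2.34, adjusted p = 0.000104), Nt5e (2.29, adjusted p = 0.00592), Pde4d (1.85, adjusted p = 2.03e-05), Vegfa (1.71, adjusted p = 5.41e-05), Fos (1.25, adjusted p = 0.000108) and Crem (1.13, adjusted p = 0.000298) changed more upward with platelets present. Kcnj2 (-2.53, adjusted p = 0.000671), Ptchd1 (-2.11, adjusted p = 0.00557), Pparg (-1.5, adjusted p = 9.55e-06) and Pdk1 (-0.81, adjusted p = 7.23e-06) changed more downward. This comparison of contrasts assumes the same thrombin dose in both, which the labels leave unclear. A difference in dose could not be told apart from the presence of platelets.

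Cd14 and Il1rn illustrate the difference. The log2 fold change of Cd14 was -0.29 with thrombin alone (adjusted p = 0.0447) and 1.45 between the platelet groups, and the difference of 1.75 passed (adjusted p = 9.71e-09). The call with thrombin alone was lost without any 1 of the 8 thrombin and vehicle libraries (adjusted p of 0.0717 to 0.162). That of Il1rn was 0.39 with thrombin alone (adjusted p = 0.0422) and 0.82 between the platelet groups, and this difference of 0.43 passed too (adjusted p = 0.0158). Its call with thrombin alone held only without thrombin replicate 3 (adjusted p = 0.0207) and was lost without any other 1 of these libraries (adjusted p of up to 0.145). For Mt1 the difference was -0.09 (adjusted p = 0.723), for Mt2 it was 0.3 (adjusted p = 0.621) and for Slc39a10 -0.3 (adjusted p = 0.0824), none of which passed. With the replicate block that of Slc39a10 passed (adjusted p = 0.00241). Slc30a1 passed at -0.77 (adjusted p = 0.031). That call was lost in 8 of the 16 fits that each left out 1 library, with an adjusted p of up to 0.0719.

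**Figure D3:**
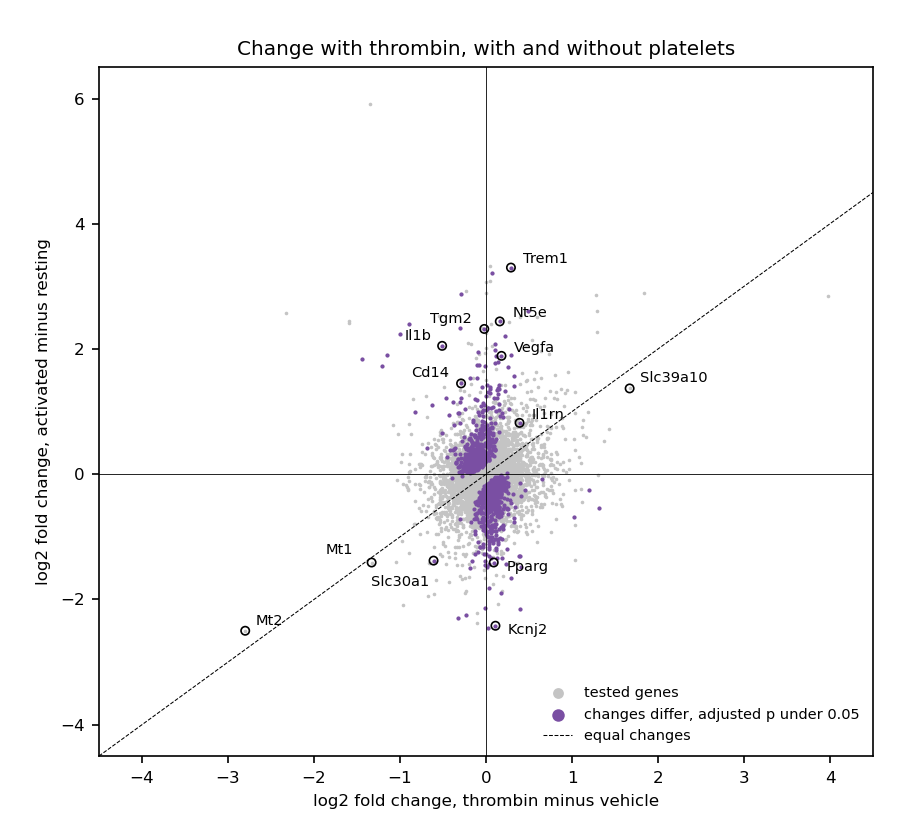
Each point is a tested gene, with the log2 fold change of thrombin against vehicle on the horizontal axis and that of activated against resting platelets on the vertical axis. The dashed line marks equal changes, and purple points are the 1550 genes whose changes differed. Mt2, Mt1 and Slc39a10 lie near the line, while Trem1, Nt5e, Tgm2 and Kcnj2 lie along the vertical axis.

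Platelet transcripts were more abundant with activated platelets. Of 25 tested platelet and megakaryocyte markers 16 rose (64%) and 0 fell by edgeR, DESeq2 or limma-voom or at an unadjusted p under 0.05, and with the replicate block 20 were higher and 1 lower. The median log2 fold change was 1.77, against -0.0028 over all tested genes. Ppbp, the platelet basic protein chemokine, stood at 5.95, 3.09, 8.59 and 1.11 CPM with resting and at 31, 46.3, 35.6 and 30.1 CPM with activated platelets (7.6-fold, log2 fold change 2.93 ± 0.38, SE, adjusted p = 7.31e-05). Nrgn, a calmodulin-binding protein abundant in platelets, rose 7.39-fold (adjusted p = 6.2e-05). Gp9 and Gp6, parts of the von Willebrand factor and collagen receptors, rose 7.39-fold (adjusted p = 0.000322) and 10-fold (adjusted p = 2.41e-06), Gp6 from at most 0.247 CPM. Alox12, the platelet lipoxygenase, rose 5.93-fold (adjusted p = 0.000258), Itga2b, the fibrinogen receptor chain, 4.6-fold (adjusted p = 5.87e-05), Gng11 3.42-fold (adjusted p = 7.78e-07) and the podoplanin receptor Clec1b 2.69-fold (adjusted p = 0.000587). Pf4, a platelet chemokine that these macrophages also expressed, at 199 CPM in vehicle, rose only 1.2-fold (adjusted p = 0.0148).

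The summed level of the 17 platelet markers that were under 5 CPM in vehicle, a cut chosen after levels were seen, was 29.8, 16.8, 37.2 and 11.9 CPM with resting and 117, 177, 141 and 115 CPM with activated platelets. Their share of counts was 0.00238% ± 0.00114 and 0.0138% ± 0.0027 (SD, n = 4), against 0.000601% in vehicle. Within replicate numbers the activated to resting ratio of this sum was 3.92, 10.5, 3.8 and 9.66, since the resting libraries of replicates 2 and 4 held fewer platelet transcripts. Haemoglobin genes moved with the platelet markers: Hba-a1 rose 5.34-fold (adjusted p = 0.000183) and Hba-a2 5.47-fold (adjusted p = 0.000447), both below 8 CPM, and the share of the red cell list was 0.00105% to 0.00136% with resting and 0.00197% to 0.00244% with activated platelets. These are near-identical copies between which counting can split reads, while Slc4a1 and Ahsp of the red cell list were at 0 in all 8 libraries. The shares of the neutrophil (0.0228% to 0.0367% against 0.0232% to 0.0353%), lymphocyte, dendritic cell, mast cell, stromal and endothelial marker lists overlapped between the groups. Within replicate numbers the lymphocyte share was lower in 4 of 4 (0.00242%, 0.0018%, 0.00387% and 0.00338% with resting and 0.00133%, 0.00129%, 0.0023% and 0.00208% with activated platelets). The dendritic cell and stromal shares were also lower in 4 of 4 and the endothelial share was higher in 4 of 4. Single genes weigh in these shares. The 1 called endothelial marker of 6 tested was Pecam1, at a mean of 2.43 CPM with resting and 7.63 CPM with activated platelets (2 markers higher with the replicate block). The 1 called lymphocyte marker of 4 tested was Ighm. Of 10 tested stromal markers 0 were called by edgeR, DESeq2 or limma-voom (1 was lower at an unadjusted p under 0.05), and with the replicate block 6 were lower and 1 was higher. The part of these cell types in the results was not tested. Of 10 tested neutrophil markers, 0 were called by edgeR without the block, DESeq2 or limma-voom, or passed at an unadjusted p under 0.05. With the replicate block 1 of them was lower.

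Some large rises outside the marker list were also compared within replicate numbers. The mitochondrial ribosomal RNA genes mt-Rnr1 and mt-Rnr2, chosen after their values were seen, rose 3.29-fold (adjusted p = 8.56e-06) and 2.66-fold (adjusted p = 2.66e-05). Their ratios within numbers were 2.82, 4.61, 2.44 and 3.86 for mt-Rnr1 and 2.37, 3.62, 1.99 and 3.06 for mt-Rnr2, higher in numbers 2 and 4. Clu, the secreted chaperone clusterin, rose 4.24-fold (adjusted p = 4.04e-06) with ratios of 3.34, 6.49, 2.91 and 5.67. Ctla2a, a cathepsin inhibitor, rose 3.72-fold (adjusted p = 3.98e-06) with ratios of 3.29, 4.43, 2.88 and 4.76. Both were, like the platelet sum, higher in numbers 2 and 4 than in 1 and 3. F5, coagulation factor V, rose 3.97-fold (adjusted p = 2.5e-06) with ratios of 2.9, 5.11, 4.43 and 3.96, so that number 3 lay above number 4. The ratios of Nt5e (4.68, 6.95, 5.41 and 5.68) were also higher in numbers 2 and 4, by a smaller margin, and those of Trem1 (17.5, 6.5, 6.54 and 13) were highest in number 1. The ratios of Pde4d (3.11, 3.22, 3.47 and 3.56) and Cd14 (2.96, 2.67, 2.75 and 2.59) hardly differed between numbers. Those of Tgm2 (5.95, 3.76, 5.52 and 5.08) and Vegfa (4.28, 2.88, 4.13 and 3.63) were lowest in number 2, where the platelet ratio was highest. The part of platelet RNA in each of these rises was not tested. Without the platelet and red cell marker genes in the fit, 2464 genes were called.

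**Figure D4:**
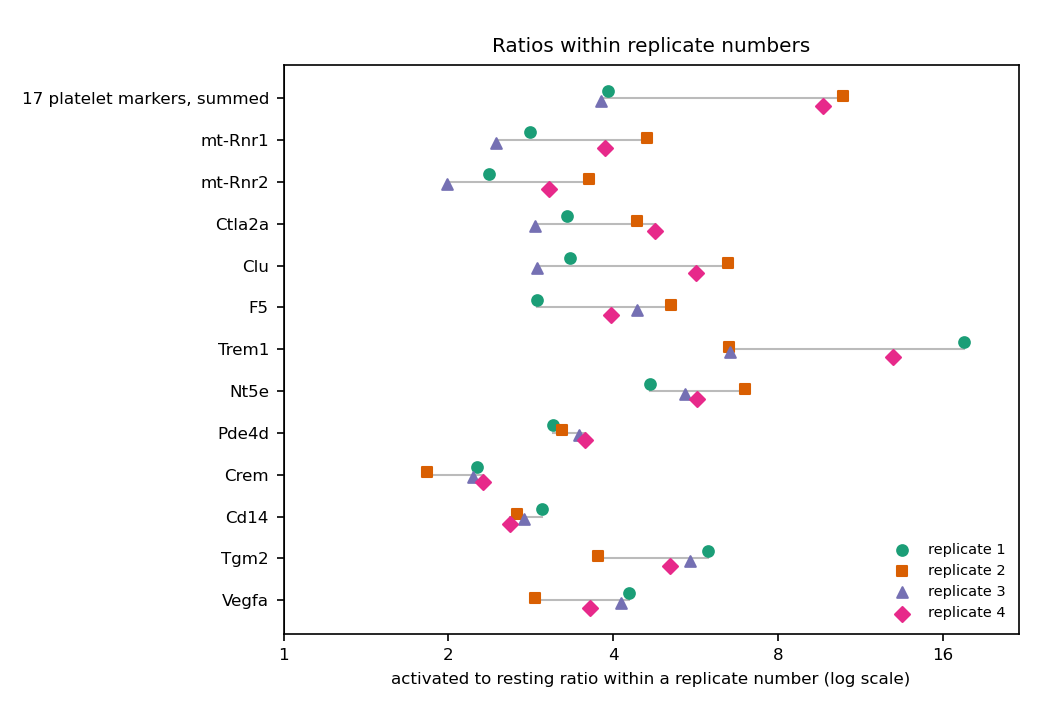
The activated to resting ratio within each replicate number is shown on a log axis for the summed level of 17 platelet markers and for single genes, 1 symbol per number. The platelet sum, mt-Rnr1, mt-Rnr2, Ctla2a and Clu have higher ratios in numbers 2 and 4 than in 1 and 3, while Pde4d and Cd14 stay within narrow ranges.

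The AP-1 element TGANTCA, read on both strands, is bound by Fos and Jun family factors. It was present in the 250-base window of 18.9% of the genes that rose at least 2-fold (21 of 111 with a window), of 11.3% of those that fell at least 2-fold (8 of 71) and of 5.85% of all tested genes with a window. These shares are a description with no test. The windows of Trem1, Nt5e, Il1b, F5, Vegfa, Ptgs2, Dusp5, Slc7a11 and Itga2b, genes that also rose, held no copy. The examples below were chosen after the search, from genes with a copy and with rises of different kinds, and capitals mark the element. Hilpda holds its copy in 1 of its 2 windows.
Ctla2a (chr13:60936723-60936779, minus strand): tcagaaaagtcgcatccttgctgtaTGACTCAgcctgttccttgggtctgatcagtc
Ctla2b (chr13:60897559-60897615, minus strand): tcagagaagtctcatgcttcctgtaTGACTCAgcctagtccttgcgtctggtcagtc
Hilpda (chr6:29272473-29272529, plus strand): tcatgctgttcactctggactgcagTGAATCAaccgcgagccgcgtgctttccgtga
Ppbp (chr5:90768289-90768345, plus strand): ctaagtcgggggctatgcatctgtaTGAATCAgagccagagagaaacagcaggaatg
Ctla2b, the neighbour and near copy of Ctla2a, rose 2.63-fold (adjusted p = 1.56e-05), and counting may split reads between the pair. Hilpda, a lipid droplet protein, rose from 7.04, 6.02, 5.96 and 6.14 CPM to 18.9, 14.9, 14.9 and 14 CPM (2.49-fold, adjusted p = 3.98e-06). Ppbp, from the platelet marker list, is described above.

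Of 32 interferon-stimulated genes 0 rose by edgeR, DESeq2 or limma-voom (2 at an unadjusted p under 0.05), with a median log2 fold change of 0.08. The 1 fall in that list was Gbp9, a guanylate-binding protein (1.68-fold, adjusted p = 8.53e-06), joined by 1 more with the block. Of 26 sterol and lipogenic genes 0 rose by the same 3 tools (0 at an unadjusted p under 0.05) and 1 fell, the sterol synthesis enzyme Hmgcs1 (1.23-fold, adjusted p = 0.0023), against 1 and 8 with the block. The 20 macrophage markers had a median log2 fold change of 0 and 3 of them rose (15%, against 7.34% of all tested genes), among them Fcgr1, a high-affinity IgG receptor (1.21-fold, adjusted p = 0.000947), and the transcription factor Cebpb (1.88-fold, adjusted p = 0.000116), with 8 higher and 6 lower under the block. Of 20 antigen presentation genes 2 rose (10%) and 0 fell (5 and 2 with the block), among them the T cell costimulator Cd86 (2.1-fold, adjusted p = 0.000499).

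In other lists falls outnumbered rises. Of 23 genes of MAPK feedback 3 rose (13%) and 7 fell (30.4%, against 8.49% of all tested genes), or 6 and 9 with the block. The phosphatase gene Dusp5 rose 2.89-fold (adjusted p = 3.24e-05) and its relative Dusp7 fell 1.63-fold (adjusted p = 1.63e-06). Of 13 Krüppel-like factors 0 rose by edgeR, DESeq2 or limma-voom (1 at an unadjusted p under 0.05) and 3 fell (2 and 5 with the block), among them Klf6, a zinc finger factor induced by injury, at 1.32-fold (adjusted p = 4.21e-05). Of 26 lysosome genes 0 rose by these tools (0 at an unadjusted p under 0.05) and 4 fell (15.4%), against 3 and 13 with the block.

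**Figure D5:**
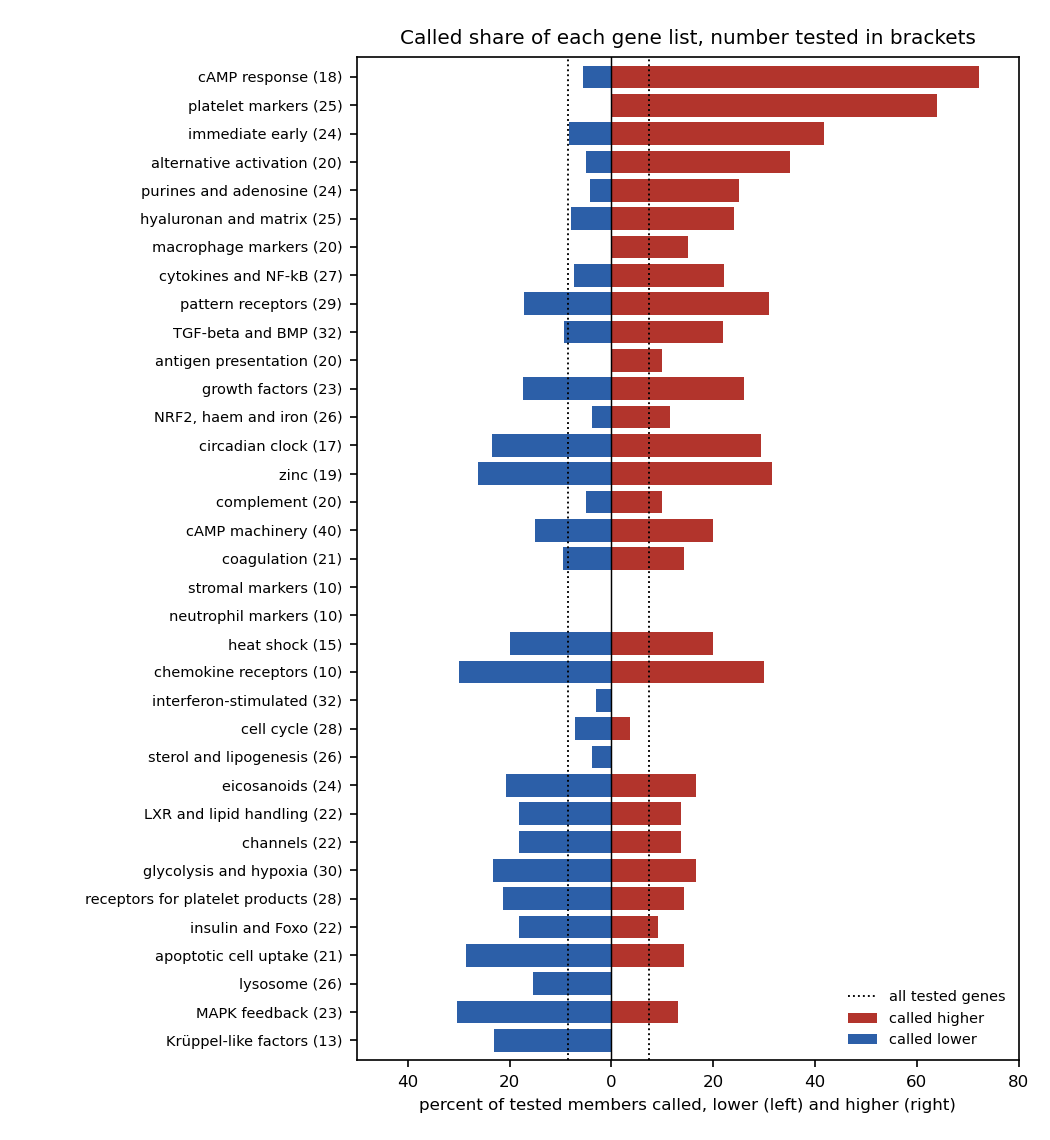
Bars give the percent of tested members of each gene list with at least 10 tested members that were called higher (right) or lower (left) with activated platelets, and the dotted lines give the same over all tested genes, 7.34% and 8.49%. The cAMP response list (13 of 18 higher) and the platelet markers (16 of 25) extend farthest to the right, and MAPK feedback genes and chemokine receptors have the longest bars to the left.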

How the data were processed

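Poly(A) libraries that keep strand were made from RNA of the wells, 4 per group, and titles gave each library its group. The authors deposited estimated counts per gene (expected counts, not normalized), for RefSeq genes on GRCm39. The submitters' processing notes list cutadapt 2.5, STAR 2.7.2b and featureCounts 1.6.4, and both GRCm39 and mm10. They give no settings for strand or multiply placed reads, so overlapping, antisense and near-identical genes are uncertain. Of values above 0, 25.5% were not whole, although whole counts had been assumed, and rounding changed 0.00734% of the total.

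Genes passing filterByExpr (15610 of 46320) were scaled by TMM and tested with edgeR 4.0.16 (R 4.3.3), using robust quasi-likelihood fits over all 16 libraries as 4 groups without a block. Tests were two-sided with Benjamini-Hochberg adjustment. The 3 contrasts reported were activated minus resting, thrombin minus vehicle, and the first less the second. The fit was tested on simulated counts. Alternatives were the replicate number as a block, a GC correction, DESeq2 1.42.0, limma-voom (limma 3.58.1), other scalings and filters, and left-out libraries.

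Genes were named by a rule: the 14 largest rises and 14 largest falls called at a mean of at least 5 CPM in the higher group, with no overlap and no predicted-gene symbol, up to 2 rising and 2 falling members per list with the smallest p, 12 fixed genes, and the 6 largest called differences between contrasts in each direction. Not all of these are described, some genes are not reported here, and other genes were chosen after their values were seen. The comparison, gene lists and rule were chosen with earlier results of these data known. Lists carry counts and medians and no test.

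After removal of group means, libraries with the same number in the platelet groups correlated at 0.383 to 0.589 and others at -0.436 to 0.253. The highest correlation was with the own number for 8 of 8, so the numbers were taken to pair the libraries. The main fit has no block and so ignores this pairing, calling 2472 genes against 5391 with the block. Adjusted p-values and calls of single genes, also those not called, come from the main fit unless the block is named. Values with the block stand beside the unblocked counts of called genes for the lists described. The labels do not state what a number stands for. By Ddx3y and Xist, replicate 1 came from male cells and replicates 2 to 4 from female cells in every group. The marrow thus did not all come from the same animal. Replicates differed by more than counting noise, but separate animals are otherwise not stated. The p-values therefore cover only the spread of these samples, which may in part be technical.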

Additional observations from a re-analysis of the deposited data

Results flagged for a closer look

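The change between activated and resting platelets differed from the change between thrombin and vehicle for 1550 genes by the test of the difference itself. Among genes described, the log2 difference was 3.01 for Trem1, 2.56 for Il1b, 2.34 for Tgm2, 2.29 for Nt5e, 1.98 for Itga2b (adjusted p = 0.0121), 1.97 for Clu (adjusted p = 0.00144), 1.85 for Pde4d, 1.75 for Cd14, 1.71 for Vegfa, 1.25 for Fos, 1.13 for Crem and 0.43 for Il1rn. It was -2.53 for Kcnj2, -2.11 for Ptchd1, -1.5 for Pparg, -0.81 for Pdk1 and -0.77 for Slc30a1.

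In 10 of 226 groups of 4 libraries checked, 1 library stood apart from the other 3, and chance alone gives about 1 in 20. Replicate 2 was high with activated platelets for Tnf (22.2 CPM against 9.36 to 10.7), Clec4e (55.5 CPM against 42.7 to 44.8), Ctla2a (179 CPM against 132 to 140) and Gng11 (48.8 CPM against 37.9 to 38.7), and with resting platelets for Clec4e (24.5 CPM against 19.8 to 20.3). Replicate 1 was high for Pf4 (279 CPM against 237 to 241) and low for Pde1c (2.27 CPM against 4.49 to 4.78) with activated platelets, and high for Hilpda (7.04 CPM against 5.96 to 6.14) with resting platelets. With activated platelets, Il1rn was low in replicate 4 (56.5 CPM against 66.2 to 68) and Fcgr1 in replicate 3 (156 CPM against 168 to 170).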

How the results depend on the processing

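The count of 2472 genes between activated and resting platelets stayed within 1.5 times (2001 to 2601) with DESeq2, limma-voom, other scalings, other filters, only the 8 platelet libraries, or without platelet and red cell markers. Leaving out single libraries gave 1799 to 2256 for it, and 1112 to 1672 for the 1550 genes that differed between contrasts. Leaving out a replicate number in all groups gave 972, 1952, 1375 and 1695 for numbers 1 to 4, and 264, 1087, 755 and 1003 for the difference between contrasts. The cause was not tested, and these fits hold fewer libraries. Of the 109 called genes named in the text with a test, 92 kept the call under every alternative that tested them, of 28 in all. Without replicate number 1 in all groups 13 were lost, Nr4a1, Nr4a3, Fosb, Hbegf and Atf3 among them, and without numbers 2, 3 and 4 there were 1, 8 and 7. The call of Adamts5 was also lost with limma-voom, and that of Sik1 without a filter and with only the 8 platelet libraries. Of the 132 called genes listed by the naming rule, 103 to 132 kept call and direction.

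With the replicate number as a block, 5391 genes were called between activated and resting platelets and 4535 between contrasts. Between activated and resting platelets the block changed 1 call among the genes named, that of Entpd1. With a GC correction added there were 5303 and 3541. Across genes, which are not independent replicates, log2 fold changes correlated with transcript GC content at a Spearman rho of 0.207, and the difference between contrasts at 0.383. Alternatives added after seeing the data were the block with only the 8 platelet libraries (5237), the fit without markers, and the block without each number in turn, which gave 4004, 4730, 4435 and 4497 for numbers 1 to 4 and 2799, 3720, 3812 and 3722 between contrasts. Depth limits genes with few counts: over the 4 resting libraries together P2rx1 had 37 counts, Nr4a3 had 36 and Arg1 had 26, against 225, 175 and 116 over the 4 activated libraries.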
